A study of Mus musculus with 2 samples.

Results

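The liver spots described here were chosen by their content of 3 acute phase transcripts, Saa1, Saa2 and Lcn2, in the section from the HFD group. Spatial transcriptomics (ST) with the 10x Visium assay was performed on 1 liver section of 1 mouse fed a high-fat diet with 60% fat (HFD) and 1 section of 1 mouse fed normal chow (NCD). Both were male C57BL/6J mice bought at 5 weeks of age. The diet was fed for 14 weeks, distilled water was then given by mouth each day for 8 weeks, and frozen sections of 10 µm were cut from the livers. In this assay, RNA from a section is captured on spots of a slide that each carry a barcode, and a unique molecular identifier (UMI) on each capture probe lets copies of one molecule be counted as 1. Each spot is a small region that can hold several cells of different types. Of 3594 HFD spots over tissue, the 3469 spots with 5000 or more UMIs were ranked by the share of their UMIs that came from the 3 genes. The highest 20% of them (693 spots) are called high spots and the lowest 20% (693 spots) are called low spots. High spots are 693 of the 7286 spots over tissue in the 2 sections together. High spots held 15192137 UMIs with a median of 19855 UMIs and 3910 genes per spot, and low spots held 14643566 UMIs with medians of 19946 UMIs and 3783 genes. The mitochondrial share of UMIs was 5.56% in high spots and 5.57% in low spots. All spots of a diet come from 1 animal and 1 section, so diet, animal and section cannot be told apart, no test was possible, and all intervals are exact 95% intervals for counting error only. The labels also name an immune cell type for these whole sections, whereas genes that mark hepatocytes made up 76997 counts per 1000000 UMIs (CPM) in high spots. Both capture areas carry the same set of 4992 spot barcodes, of which 3173 lay over tissue on both, so a shared barcode marks a place on the array and not a shared cell.

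The acute phase response is the change in secreted liver proteins that follows infection or tissue injury. Cytokines of the IL-6 family act on hepatocytes through the receptor subunit gp130, JAK kinases and the factor STAT3, while IL-1 and TNF act through NF-kB, and factors of the C/EBP family act on many of the same promoters. Serum amyloid A proteins, encoded by Saa1 and Saa2, are apolipoproteins carried on HDL, and lipocalin 2, encoded by Lcn2, binds bacterial siderophores and so withholds iron. All are made by hepatocytes in the acute phase, and Lcn2 is also a product of neutrophils. Hepatocytes differ along the axis from the portal vein to the central vein: periportal cells carry out urea synthesis and gluconeogenesis, while pericentral cells hold glutamine synthetase and many cytochromes P450.

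In the GENCODE M21 annotation on GRCm38, Saa1 (ENSMUSG00000074115) lies at chr7:46740497-46742980 on the minus strand and Saa2 (ENSMUSG00000057465) at chr7:46751790-46754313 on the plus strand. Lcn2 (ENSMUSG00000026822) lies at chr2:32384633-32388252 on the minus strand. All 3 are protein-coding genes, and counts are sums over each gene with no split by exon. Upstream sequences of Saa1 and Saa2 are shown because the genes are near copies whose transcripts varied together across spots. They run 5′ to 3′ on the strand of the gene from 200 to 51 bases before the start of transcription given by RefSeq for GRCm38.p6, at chr7:46743031-46743180 (minus strand) for Saa1 and chr7:46751633-46751782 (plus strand) for Saa2. Capitals mark matches on either strand to a pattern written for NF-kB, GGG and CC with any 5 bases between them, or to the letters TTNNGNAA, written for C/EBP.
Saa1: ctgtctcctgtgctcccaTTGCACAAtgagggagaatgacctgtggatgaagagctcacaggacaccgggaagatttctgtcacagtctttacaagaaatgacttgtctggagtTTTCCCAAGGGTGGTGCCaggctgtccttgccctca
Saa2: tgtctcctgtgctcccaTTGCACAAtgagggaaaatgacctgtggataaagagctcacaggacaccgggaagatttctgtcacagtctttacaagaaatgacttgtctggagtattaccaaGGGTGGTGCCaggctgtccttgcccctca
Over the 250 bases before their starts the 2 genes were identical in 238 of 251 aligned positions (94.8%), against 56.0% between Saa1 and Lcn2 and 54.8% between Saa1 and Saa3. The NF-kB match ended 69 bases before the start in Saa1 and 70 bases before it in Saa2. In Saa1 it directly followed a match to the C/EBP letters that Saa2 does not have at that place. The Lcn2 window also held both patterns, with the NF-kB match from 102 to 93 bases before the start, while the Saa3 window held 4 matches to the C/EBP letters and none to the NF-kB pattern. The window of Saa4, the constitutive member of the family, also held both, with 1 NF-kB match and 2 C/EBP matches. Such matches are frequent: among 32851 promoter windows of the same length, 45.8% held the NF-kB pattern, 36.8% held the C/EBP letters and 13.1% held both. The letters TTCNNNGAA, written for STAT factors, were in 7.02% of the windows and in none of those of Saa1, Saa2, Saa3 and Lcn2. Since reads of near-identical genes can be assigned to either copy or dropped, the split of counts between Saa1 and Saa2 is uncertain.

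The share of the 3 transcripts varied widely between spots of the HFD section. In high spots it ran from 1221 to 10109 CPM with a median of 1655 CPM, and in low spots from 0 to 407 CPM with a median of 300.4 CPM. The groups cannot overlap, because this share chose them, and the values that follow for these genes are a description. The last high spot had 12 UMIs of the 3 genes among 9826 (1221 CPM) and the first spot below it had 48 among 39372 (1219 CPM). At the other end, the first low spot had 6 among 14731 (407 CPM) and the spot next above it 11 among 26951 (408 CPM), so the cuts lie in a continuous range. Spots off tissue on the same array held 705 CPM of the 3 genes, and the part of RNA that spread between spots in these levels was not tested. High spots held 21.2% of the UMIs of the ranked spots and 48.3% of the UMIs of the 3 genes. Saa1 ran from 282 to 5467 CPM per high spot with a median of 964 CPM, and from 0 to 389 CPM per low spot with a median of 162 CPM. Saa2 had a median of 484 CPM in high spots and 53.8 CPM in low spots, with highest values of 4167 and 310.3 CPM. Lcn2 had medians of 265 and 59.99 CPM, with highest values of 2066 and 356 CPM. Ranges of single genes thus overlapped between the groups where Saa1, Saa2 and Lcn2 together do not. Pooled over spots, Saa1 stood at 1201 against 163 CPM, Saa2 at 626 against 57.4 CPM and Lcn2 at 324 against 70.5 CPM.

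**Figure D1:**
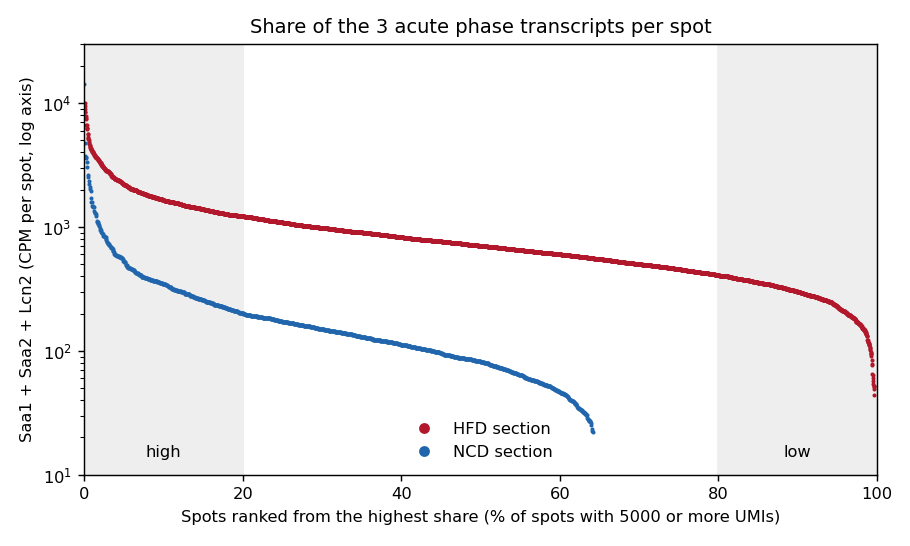
Share of Saa1, Saa2 and Lcn2 in each spot with 5000 or more UMIs, in CPM on a log axis, against the place of the spot in the ranking of its section as a percentage. Each point is a spot, grey bands mark the high and low 20%, and spots without a UMI of the 3 genes (10 HFD and 607 NCD spots) are not drawn; the HFD values fall without a step from 10109 CPM to the low spots.

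The 3 genes were higher together when the UMIs counted were not those that chose the spots. When spots were ranked by Saa1 and Saa2 alone, Lcn2 stood at 299 CPM (290 to 307) in the highest 20% and 98.8 CPM (93.8 to 104) in the lowest 20%, a log2 ratio of 1.59 (1.51 to 1.68). When spots were ranked by Lcn2 alone, Saa1 stood at 959 against 333 CPM (log2 ratio 1.53, 1.47 to 1.58) and Saa2 at 489 against 142 CPM (1.78, 1.71 to 1.86). In that ranking 500 of the 693 lowest spots had no UMI of Lcn2 and were ordered among themselves only by their place in the table, and their median depth was 16072 UMIs against 18831 in the highest spots. Ranking by the other 2 genes gave log2 ratios of 2.15 (2.09 to 2.20) for Saa1 and 2.72 (2.63 to 2.80) for Saa2. Reads of these near copies can be assigned to either gene, so these 2 ratios are not independent of the UMIs that ranked the spots. Ranking on one random split of the UMIs of each spot and counting in the other split gave 2.19 for Saa1, 2.67 for Saa2 and 1.73 for Lcn2. The agreement between spots was partial. Of the 693 spots highest for Saa1 and Saa2, 315 (45.5%) were also among the 693 highest for Lcn2, and 53 (7.65%) were among the 693 lowest. As a description over the 3469 ranked spots, which share a library, Spearman's rho was 0.38 between the shares of Lcn2 and of Saa1 with Saa2, and 0.59 between Saa1 and Saa2. The uncertain split of reads between Saa1 and Saa2 also bears on the second value.

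**Figure D2:**
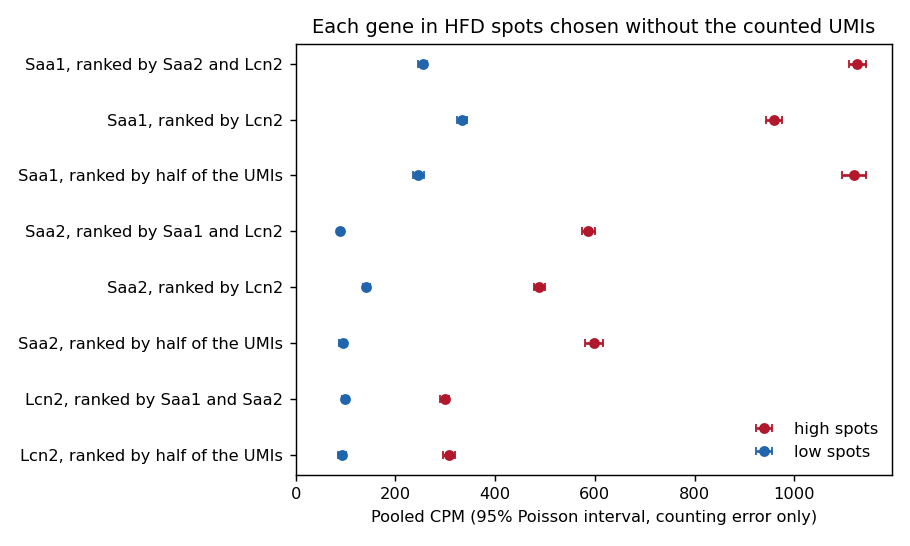
Pooled CPM of each gene in HFD spots that were ranked without the UMIs counted, with 95% Poisson intervals for counting error. Red points are the highest 20% of spots and blue points the lowest 20%; in each row the red point lies to the right, with the smallest difference for Lcn2.

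Other genes were compared as pooled CPM of high over low spots, on the log2 scale. A gene with at least 300 UMIs over both groups is called higher or lower where the ratio of its CPM reached 1.3-fold (0.38 on the log2 scale). Of 6537 such genes besides the 3 that chose the spots, 393 were higher (6.01%) and 155 were lower (2.37%) in high spots, and the median log2 ratio was 0.00. A 2-fold difference was reached by 72 genes that were higher and 11 that were lower.

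Part of the other positive acute phase genes were higher in high spots and none was lower. Of 34 listed genes 33 had enough UMIs, and 11 of them were higher and 0 lower, beside 6.01% and 2.37% of all genes. The median log2 ratio of the 33 genes was 0.25, and their summed level was 33294 CPM in high spots and 26481 CPM in low spots (log2 ratio 0.33, 0.32 to 0.34). The list was written with earlier results of these data known. Saa3 (chr7:46711998-46715700, minus strand), a serum amyloid A gene that is also active outside hepatocytes, reached 30.1 against 7.72 CPM (log2 ratio 1.96, 1.66 to 2.27). Saa3 was at 0 in the median spot of both groups, and its highest spot had 625 CPM among high spots and 184 CPM among low spots. Saa4 stood at 243 against 260 CPM (-0.10, -0.17 to -0.03). The inducible Saa3 and the constitutive Saa4 thus differed in direction.

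Metallothioneins, which bind zinc and are induced by cytokines, glucocorticoids and metals, were the next in size. Mt2 stood at 209 against 65.1 CPM (1.68, 1.58 to 1.79) and Mt1 at 1239 against 496 CPM (1.32, 1.28 to 1.36). Per spot, Mt1 had a median of 905 CPM in high spots and 418 CPM in low spots, with highest values of 7276 and 2005 CPM, so the groups overlapped broadly. Genes of orosomucoid, a binding protein of plasma, differed in size: Orm2 had a log2 ratio of 1.23 (1.12 to 1.33) and Orm1 0.49 (0.46 to 0.52), while Orm3 had 0.07 (-0.14 to 0.29). Il1rn, the receptor antagonist of IL-1, had a ratio of 1.25 (0.92 to 1.58), and Cd14, a coreceptor for lipopolysaccharide, 1.13 (0.78 to 1.48). The scavengers and binding proteins in this list had smaller ratios that still reached the call: hemopexin (Hpx) 0.52, serum amyloid P (Apcs) 0.51, the antiprotease Serpina3n 0.49 and the metalloreductase Steap4 0.53. The level of Hpx ran from 2507 to 11181 CPM in single high spots with a median of 6078 CPM, and from 1744 to 9975 CPM in low spots with a median of 4174 CPM.

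Much of the classical programme stayed below 1.3-fold. Haptoglobin (Hp) had a log2 ratio of 0.36 (0.34 to 0.37), the fibrinogen chains Fga, Fgb and Fgg 0.21, 0.24 and 0.21, complement C3 0.23, ceruloplasmin (Cp) 0.26, Lrg1 0.26, and C-reactive protein (Crp) 0.16. Hamp, which encodes the iron hormone hepcidin and responds to IL-6, stood at 635 against 597 CPM (0.09, 0.05 to 0.13). Of 14 negative acute phase genes, which fall in a systemic response, 0 were higher and 1 was lower, the paraoxonase gene Pon1 (-0.48). Albumin (Alb) stood at 60052 against 56341 CPM (0.09), and transthyretin (Ttr) had a ratio of 0.02. Rbp4 stood at 4234 against 4965 CPM and Apoa2 at 29254 against 32977 CPM, while 9 of the 14 genes had ratios above 0. The summed log2 ratio of the 14 genes was 0.02. It was -0.04 when spots were ranked within the zonation score and the stromal and duct share. None of 21 complement genes and 1 of 18 coagulation genes passed the call, with summed log2 ratios of 0.11 and 0.00.

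Of the transcripts listed for the inducing pathway 5 were called higher, all from the IL-1, TNF and NF-kB list. Among the ligands, Il6 and Il22 had 0 UMIs in both groups, which allows up to 0.197 CPM of each in high spots and 0.205 CPM in low spots. Il1b stood at 61 against 59 UMIs and Tnf at 7 against 2 UMIs, too few for a call. Of 15 receptor and signalling genes of the IL-6 family, 8 had enough UMIs and none was called. The receptor subunit Il6ra had a log2 ratio of -0.22 (-0.46 to 0.02), gp130 (Il6st) -0.06 (-0.20 to 0.07) and the LIF receptor Lifr -0.23 (-0.39 to -0.07). The kinase gene Jak1 had 0.22 (0.08 to 0.36) and Stat3 0.26 (0.11 to 0.40), while Socs3, the feedback inhibitor of STAT3 signalling, stood at 94 against 89 UMIs. Other genes under the minimum took both directions. Socs2 stood at 5.33 against 1.98 CPM and Osmr at 8.03 against 4.78 CPM, while Tyk2 stood at 9.08 against 9.77 CPM. On the side of IL-1, TNF and NF-kB, 17 of 27 listed genes were tested, and 5 were higher and 0 lower. These were the subunit gene Nfkb1 (0.44), the adhesion molecule gene Icam1 (0.42) and the chemokine genes Cxcl1 (0.60), Ccl2 (1.20) and Cxcl10 (1.52). The receptor gene Il1r1 (-0.10, -0.36 to 0.16) and the inhibitor gene Nfkbia (0.02, -0.14 to 0.17) were not called. Under the minimum, Tnfaip3 stood at 8.03 against 3.76 CPM and Relb at 8.75 against 4.37 CPM, while Nfkbiz stood at 5.6 CPM in both groups. Of 17 tested genes for C/EBP and hepatocyte factors, 0 were higher and 1 was lower, the nuclear receptor gene Nr1i3 (-0.50). Cebpb had a ratio of -0.14 (-0.20 to -0.09) and Cebpd 0.30 (0.13 to 0.46).

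Genes listed for injured or regenerating epithelium were higher with the acute phase genes. Of 12 listed genes 10 were tested, of which 9 were higher and 0 lower, with a summed log2 ratio of 0.67 (0.65 to 0.70). Sprr1a, a cornified envelope gene induced by stress, stood at 25.6 against 5.80 CPM (2.14, 1.80 to 2.497), and Ly6d at 216 against 122 CPM (0.83, 0.74 to 0.91). The hepatocyte keratins Krt8 (0.52) and Krt18 (0.68) and Tnfrsf12a, the receptor for TWEAK (0.89), were also higher. The others called were Tmsb10, S100a11, Anxa2 and Lgals3, and the last is also in the list of lipid-associated macrophages. Of the 2 genes under the minimum, Krt23 stood at 3.29 against 5.26 CPM and Cd24a at 7.77 against 2.05 CPM. Which cells made these transcripts was not tested. Of 12 immediate early genes tested, 5 were higher and 0 lower, namely Hspa1a (0.83), Egr1 (0.67), Klf6 (0.52), Junb (0.45) and Btg2 (0.44). When spots were ranked within the zonation score and the stromal and duct share, as described further on, 2 were higher, Hspa1a and Klf6, and 1 was lower, Fos (0.07 and then -0.39). None of 20 ER chaperone genes was called.

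Pericentral genes were lower in high spots. All 10 genes with enough UMIs out of 14 listed were called lower, and their sum fell from 9168 CPM in low spots to 4899 CPM in high spots (log2 ratio -0.90, -0.92 to -0.89). Oat, an ornithine aminotransferase gene, stood at 455 against 1218 CPM (-1.42, -1.46 to -1.38), the glutamate transporter gene Slc1a2 at 38.8 against 102 CPM (-1.40), and Glul, which encodes glutamine synthetase, at 256 against 566 CPM (-1.14, -1.20 to -1.09). Oat had a median of 308 CPM per high spot and 648 CPM per low spot, but single spots reached 5846 CPM in the first group and 9766 CPM in the second. Cyp2e1, an ethanol-inducible P450 gene, had medians of 3083 and 6223 CPM over ranges of 233 to 13301 and 232 to 15787 CPM. The ranges therefore overlapped almost fully, while the medians of low spots were higher. Other genes at the low end of the ratio were Cyp2c37 (-1.305), Lhpp (-1.299), Cyp2a5 (-1.25), Cyp2b13 (-1.17), Rhbg (-1.16), Gm13775 (-1.05), Cyp2c50 (-1.001), Gm32468 (-0.999) and Cyp1a2 (-0.97), most of them P450 genes or genes of ammonium handling.

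Periportal genes did not mirror this. Of 14 tested genes 1 was higher, Sdsl (0.63), and 0 were lower, and the sum had a log2 ratio of 0.06 (0.05 to 0.07). Cyp2f2 had 0.28, Hsd17b13 0.37, and the urea cycle genes Cps1 and Arg1 0.00 and 0.01. By a zonation score, the log of pericentral over periportal UMIs of each spot, 212 high spots (30.6%, 27.2 to 34.2) fell in the most periportal 20% of the ranked spots and 67 (9.67%, 7.57 to 12.1) in the most pericentral 20%. Among low spots the numbers were 113 (16.3%) and 216 (31.2%). High spots were thus found in every 20% class of this score, but with fewer of them at its pericentral end. Spot positions were not used, so place in the lobule and a lower level of pericentral transcripts cannot be told apart.

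Several lists of metabolic genes had members that were lower and none that was higher. Of 24 genes for cytochromes P450 and conjugation 0 were higher and 12 lower (summed log2 ratio -0.51), of 16 for bile acid synthesis and transport 5 were lower (-0.31), of 16 lipid droplet genes 3 were lower (-0.29) and of 18 for fatty acid oxidation and ketogenesis 3 were lower (-0.22). The lipid droplet genes that were lower were Cidea (-0.88), Fitm1 (-0.67) and G0s2 (-0.53), while Plin2, which coats droplets, had -0.06 (-0.10 to -0.02). The acyl-CoA thioesterase genes Acot1 (-0.71), Acot3 (-0.81) and Acot4 (-0.44) were lower, and Cpt1a, for the entry of fatty acids into mitochondria, had -0.17. Lipogenesis and cholesterol synthesis differed from these lists, with 4 higher and 1 lower of 18 genes. The 4 belong to cholesterol synthesis, Sqle (1.37), Fdps (0.62), Idi1 (0.49) and Cyp51 (0.45), and the lower one was the lipogenic gene Thrsp (-0.45). Genes that mark hepatocytes as such had a summed log2 ratio of 0.03 (0.03 to 0.04), which turned to -0.0703 (-0.0742 to -0.0665) when spots were ranked within the zonation score and the stromal and duct share. Most of this sum was Alb. Of the 5 genes 0 were higher and 1 was lower, Cyp2e1, while 2 had ratios above 0 and the median log2 ratio was -0.06.

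Stromal genes were at the high end of the ratio. The 3 fibrosis genes Acta2, Col1a1 and Col1a2 were all higher, with log2 ratios of 2.79 (2.54 to 3.05), 1.64 (1.42 to 1.86) and 1.31 (1.13 to 1.49). The matrix protein gene Mgp had the highest ratio of the genes kept by the naming rule, at 72.4 against 6.97 CPM (3.38, 3.08 to 3.68). Most spots of both groups had no UMI of Mgp, and the highest value of a spot was 2415 CPM among high spots and 889 CPM among low spots. It was followed by Tff3 (3.04), a trefoil factor of mucous epithelia, Ccl21a (2.56), a chemokine of lymphatic vessels, S100a4 (2.54) and S100a6 (2.40), Timp1 (2.46), an inhibitor of matrix proteases, Gsn (2.13) and the smooth muscle light chain Myl9 (2.06). Smooth muscle genes summed to 141 against 33.2 CPM (2.09, 1.94 to 2.23) and bile duct genes to 26.2 against 10.2 CPM (1.36, 1.09 to 1.65). Among the 20% of ranked spots with the highest stromal and duct share were 253 high spots (36.5%) and 75 low spots (10.8%). Ccl21a has near copies in the genome, so its counts are uncertain, and its ratio turned to -0.12 when spots were ranked by Lcn2 alone. Of 6 tested genes of hepatic stellate cells 1 was higher, the collagen gene Col3a1 (142 against 67.0 CPM), and their median log2 ratio was -0.05. Their sum had a ratio of 0.30 (0.25 to 0.36), which was -0.01 (-0.08 to 0.05) without the 20% of spots richest in stromal and duct transcripts. The sum of endothelial genes had a ratio of -0.26 (-0.37 to -0.14), with 1 of 4 tested genes lower and 0 higher. It was -0.06 (-0.17 to 0.06) when spots were ranked within the zonation score and the stromal and duct share. Fewer cells of a type in a spot and less RNA per cell cannot be told apart in these data.

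Immune transcripts differed by kind. All 6 tested genes of MHC class II were higher, with a summed level of 1211 against 651 CPM (0.89, 0.86 to 0.93), among them Cd74 (0.88), H2-Aa (0.80) and H2-Eb1 (1.06), whereas 0 of 8 MHC class I genes were called (0.03, 0.02 to 0.04). Of 9 tested genes of lipid-associated macrophages, 8 were higher and 0 lower (summed 0.85, 0.81 to 0.88). Spp1, osteopontin, had the largest of these ratios at 366 against 84.5 CPM (2.12, 2.03 to 2.21), with Mmp12 (1.63), Lpl (1.27), Gpnmb (1.26), Lgals3 (1.20) and Trem2 (1.11). Spp1 had a median of 179 CPM per high spot and 39.3 CPM per low spot, and reached 7108 and 3459 CPM in single spots. It is also made by bile duct cells. Kupffer cell genes went the other way in part: 0 of 6 were higher, and Clec4f (-0.55, -0.70 to -0.39) and Vsig4 (-0.56, -0.84 to -0.28) were lower. Neutrophils are another source of Lcn2, and their 11 genes summed to 19.1 against 7.99 CPM (1.26, 0.94 to 1.58), none with enough UMIs for a call. S100a8 stood at 111 against 39 UMIs and S100a9 at 113 against 49 UMIs, while Ly6g, Camp and Ltf had 0 UMIs in both groups. T cell genes (1.25, 0.81 to 1.72), monocyte genes (1.20, 0.72 to 1.70) and dendritic cell genes (1.29, 0.90 to 1.69) had sums of at most 12.5 CPM in high spots. Of 16 interferon-stimulated genes 5 were higher, including Rsad2 (0.91). The part of these cells in the levels of Saa1, Saa2 and Lcn2 was not tested.

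**Figure D3:**
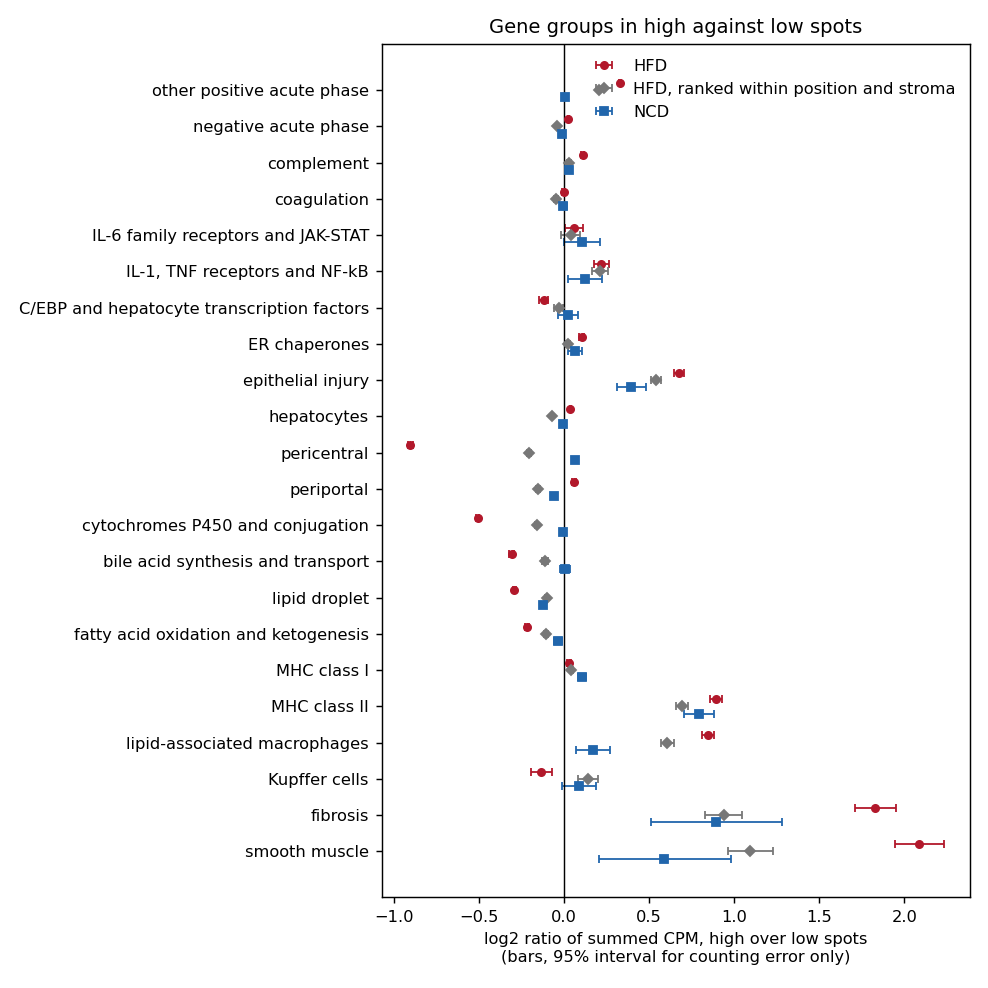
Log2 ratio of the summed CPM of gene groups in high over low spots, with 95% intervals for counting error. Red circles are the HFD section, grey diamonds the HFD spots ranked within classes of the zonation score and of the stromal and duct share, and blue squares the NCD section; pericentral genes lie at -0.90, -0.21 and 0.06, while MHC class II genes lie at 0.89, 0.69 and 0.79.

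Because the zonation score and the stromal and duct share moved with the ranking, spots were also ranked within classes of both. There were 5 classes of the score crossed with 5 classes of the share, and high and low spots were drawn from the same classes. Groups drawn in this way still differed in genes of the share: smooth muscle genes had 1.09 (0.96 to 1.22), with 2 higher. Place in the lobule was not measured. Of 6386 genes tested in this way 273 were higher (4.27%) and 21 were lower (0.329%). They included 226 of the 393 genes that were higher before and 16 of the 155 that were lower. Of the acute phase genes 9 were higher and 0 lower, with a summed log2 ratio of 0.20 (0.20 to 0.21). Saa3 had 1.98, Mt2 1.25, Il1rn 1.21, Orm2 1.15, Cd14 1.08 and Mt1 0.98. The chemokine gene Cxcl10, from the IL-1, TNF and NF-kB list, had 1.56. MHC class II genes had 0.69 (0.66 to 0.73) with 6 of 6 higher, lipid-associated macrophage genes 0.61 (0.57 to 0.64) with 7 higher, and epithelial injury genes 0.54 (0.51 to 0.57) with 8 higher. Pericentral genes had -0.21 (-0.22 to -0.19) with 0 called, and P450 and conjugation genes -0.16 with 0 called. Bile acid genes had -0.11, lipid droplet genes -0.10 and fatty acid oxidation genes -0.11, each with 0 called. Periportal genes had -0.15 (-0.17 to -0.14), with 1 lower, a direction opposite to that without the scores. The pericentral and periportal genes together make up the zonation score. The smaller difference of the first and the changed sign of the second thus follow in part from the way the spots were drawn. Kupffer cell genes also changed sign, to 0.14 (0.08 to 0.20), with 0 called. Fibrosis genes, although part of the score, still had 0.94 (0.83 to 1.05), and bile duct genes 0.04 (-0.23 to 0.32). Sprr1a had 1.74 and Spp1 1.10 in this ranking. Without the 20% of spots richest in stromal and duct transcripts, Mgp had a log2 ratio of 1.68, Acta2 0.85 and Myl9 0.28, while Saa3 had 1.82, Sprr1a 1.93 and Spp1 1.75.

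**Figure D4:**
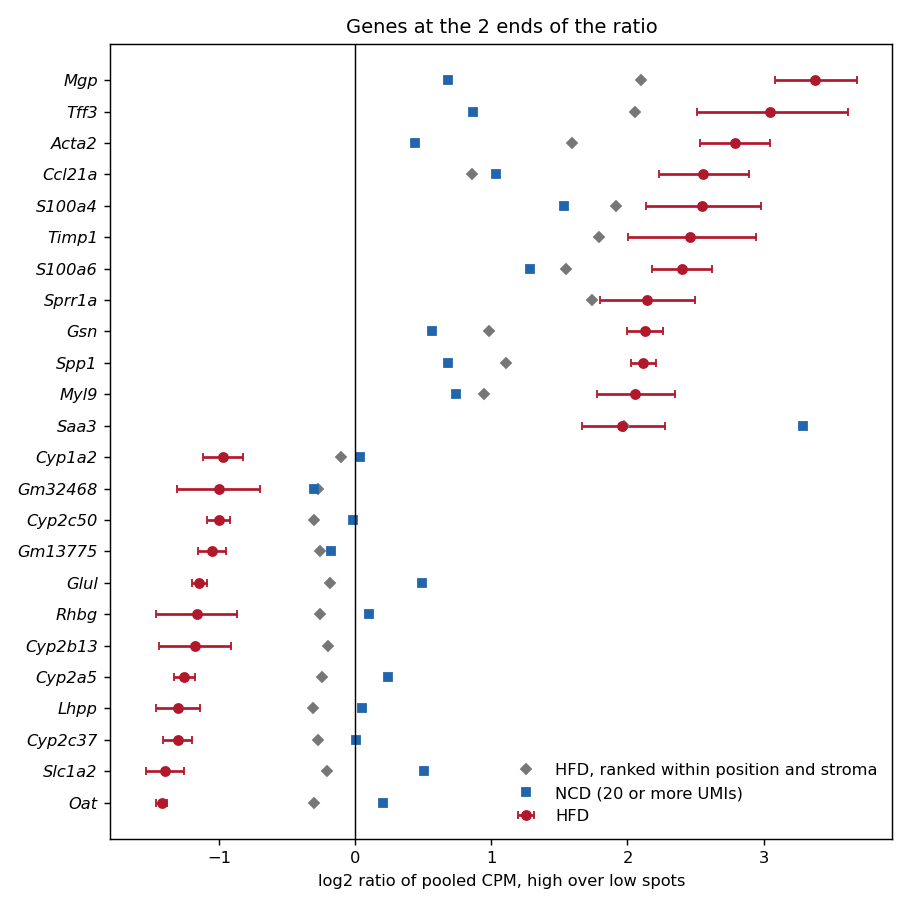
Log2 ratio of pooled CPM in high over low spots for the 12 genes at each end of the HFD ratio. Red circles with 95% intervals are HFD spots, grey diamonds HFD spots ranked within the zonation score and the stromal and duct share, and blue squares the NCD section where a gene had 20 or more UMIs; Saa3 lies at 1.96, 1.98 and 3.29, while Oat lies at -1.42, -0.30 and 0.21.

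Part of the gene groups moved in steps along the whole ranking. With all ranked HFD spots divided into 5 groups of 693 to 695 spots, the other acute phase genes summed to 26481, 27496, 28393, 29736 and 33294 CPM from the lowest to the highest group. Pericentral genes summed to 9168, 8543, 7354, 6466 and 4899 CPM in the same order. MHC class II genes stood at 651, 704, 808, 889 and 1211 CPM, with the largest step at the top. Of the 47 lists besides the 3 genes themselves, 25 were higher in each group than in the one before, 8 were lower and 14 were neither, smooth muscle, periportal, Kupffer cell, neutrophil and red blood cell genes among these. Of all 6537 tested genes, 390 (5.97%) were higher in each group than in the one before and 409 (6.26%) were lower. Orm2, Hpx, Mt2, Mgp, Sprr1a and Spp1 were among the first, and Oat, Glul and Cyp2e1 among the second. Saa3 was not: it stood at 7.72, 8.01, 11.8, 11.07 and 30.1 CPM.

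**Figure D5:**
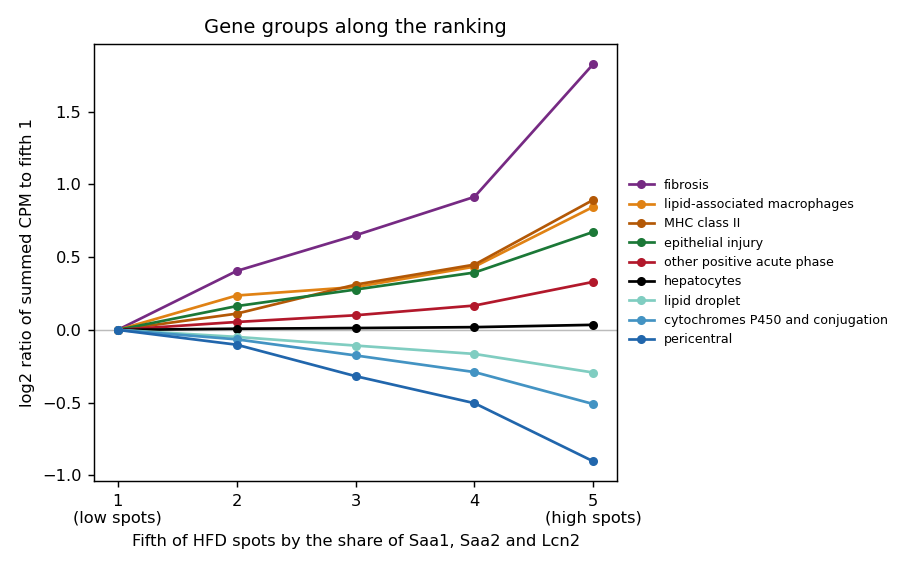
Log2 ratio of the summed CPM of gene groups in 5 equal groups of the ranked HFD spots to the lowest group, by the share of Saa1, Saa2 and Lcn2. Each line is a gene group; fibrosis genes end at 1.83, other acute phase genes at 0.33, hepatocyte genes at 0.03 and pericentral genes at -0.90.

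The 34 spots at the very top, 1% of those ranked, held 8.60% of the UMIs of the 3 genes. Their median depth was 29446.5 UMIs, against 19855 UMIs over all high spots. Compared with the rest of the high spots, they had 105 against 25.0 CPM of Saa3 (log2 ratio 2.07, 1.74 to 2.40), 303.4 against 150.4 CPM of Orm2 (1.01, 0.83 to 1.19) and 2152 against 1177 CPM of Mt1 (0.87, 0.80 to 0.94). MHC class II genes had a ratio of 0.74 (0.67 to 0.81), pericentral genes -0.56 (-0.61 to -0.51) and periportal genes -0.22 (-0.26 to -0.18). Fibrosis genes had 0.51 (0.32 to 0.71), while the intervals of smooth muscle genes (0.13, -0.12 to 0.37) and bile duct genes (-0.59, -1.39 to 0.10) held 0. Neutrophil genes stood at 29.2 against 18.4 CPM (0.67, 0.05 to 1.23).

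The same rule was applied to the NCD section, whose spots did not take part in the choice. Over all its tissue spots the 3 genes stood at 153 CPM, against 942 CPM in the HFD liver. Saa1 stood at 107 against 529 CPM (log2 ratio of HFD to NCD 2.31, 2.26 to 2.36), Saa2 at 38.6 against 244 CPM (2.66) and Lcn2 at 7.65 against 169 CPM (4.46, 4.27 to 4.66). Of 3692 NCD spots 1695 had 5000 or more UMIs, giving 339 high and 339 low spots with median depths of 11584 and 9162 UMIs. All 339 low spots had 0 UMIs of the 3 genes, and since 607 of the ranked spots (35.8%) had none, their choice among these followed the order of the table. High NCD spots had a median of 348 CPM and a highest spot of 14136 CPM, above any HFD spot. When spots were ranked by Saa1 and Saa2, Lcn2 stood at 87 against 30 UMIs (1.32, 0.70 to 1.97). Of 2558 genes tested 50 were higher (1.95%) and 7 were lower (0.274%). Spots off tissue on the NCD array held 6870975 UMIs over 1300 spots, against 2177155 UMIs over 1398 spots on the HFD array. Subtraction of the NCD profile off tissue left 2344579 of 4613935 UMIs in NCD high spots and 585408 of 3949331 UMIs in NCD low spots. After it, 1125 genes could be tested, and 205 were higher and 242 lower. The part of RNA that spread over the array in the NCD ratios was not tested.

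Some of the differences seen among HFD spots were also seen among NCD spots and others were not. Of the 60 genes that were higher in HFD high spots and were tested in the NCD section, 25 were higher there too. They made up 41.7% of the first list and 50.0% of the 50 genes that were higher in the NCD section. In NCD high spots, Saa3 stood at 114 against 10 UMIs (3.29, 2.36 to 4.39) and Orm2 at 165 against 56 UMIs (1.33). Both were under the minimum of 300 UMIs there and were not called. The sum of the other acute phase genes had a ratio of 0.01, with 1 of 25 higher and 0 lower. MHC class II genes had 0.79 (0.70 to 0.88) with 4 of 4 higher, against 0.89 among HFD spots. Lipid-associated macrophage genes had 0.17 (0.07 to 0.27) with 1 of 2 higher, against 0.85, and interferon-stimulated genes 0.33 (0.25 to 0.40) with 5 of 6 higher, against 0.16. Epithelial injury genes had 0.40 (0.31 to 0.48) with 1 of 4 higher and 0 lower, against 0.67, while their members Ly6d and Sprr1a stood at 39 against 31 UMIs and at 0 against 1 UMI. Of 79 genes that were lower in HFD high spots and were tested, 0 were lower in NCD high spots and 34 had ratios above 0. Among all genes tested in the NCD section 0.274% were lower. Of the 2550 genes tested in both sections, 51.8% had NCD ratios above 0. Pericentral genes as a sum had 0.06 (0.05 to 0.08), with 2 of 9 higher and 0 lower, and Glul stood at 840 against 596 CPM (0.49, 0.42 to 0.57). Red blood cell genes had 0.55 (0.53 to 0.58), with 5 of 5 higher, against 0.17 (0.14 to 0.20) in the HFD section, and their part in the NCD result was not tested. With 1 section per diet, the difference between the sections was not tested.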

How the data were processed

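The values are UMI counts per gene and spot, deposited by the authors as raw counts from Space Ranger 1.3.1 for all spots and for spots over tissue, with no normalization. The submitters' processing notes name the build mm10. The 2 tables of each section differed in 0 UMIs for shared spots. Of 32285 gene identifiers, 32158 are in GENCODE M21 on GRCm38, which gave gene positions. Spot positions, images and single-cell data were not used here.

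UMIs were pooled over high and low spots and divided by the pooled total (CPM). Ratios have exact conditional binomial intervals, levels exact Poisson intervals and shares of spots exact Clopper-Pearson intervals, at the 95% level. They cover counting error only, so depth sets their width and animals do not enter. With 1 section per diet no test was run; a call is a CPM ratio of 1.3-fold among genes with 300 or more UMIs. Where a count was 0, 3 counts gave the limit. Named are the 3 genes of the rule, the 12 genes at each end of the ratio that kept their direction within 10 classes of depth and within 5 classes of the zonation score, and members of 48 gene lists: those at the ends of each list and those that stand for a role. The spots, genes and lists were chosen with earlier results of these data known.

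Alternatives changed the minimum of UMIs per spot and gene, the fold, the share of spots, the ranking, the denominator, the weighting of spots, the background off tissue and the comparison group; 4 were chosen after seeing the data. The stromal and duct share used 16 genes, and the zonation score added 1 UMI to each sum. The computation was tested on simulated data with known folds. It used numpy 2.4.6, pandas 2.3.3, scipy 1.17.1 and matplotlib 3.10.9 under Python 3.11.15, with random seed 1.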

Additional observations from a re-analysis of the deposited data

Results flagged for a closer look

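Pericentral genes differed in sign between the sections: their sum had a log2 ratio of high to low spots of -0.904 among HFD spots and 0.064 among NCD spots. The same held for Oat (-1.42 and 0.21), Slc1a2 (-1.40 and 0.50), Cyp2a5 (-1.25 and 0.24) and Glul (-1.14 and 0.49), each with a 95% counting interval above 0 in the NCD section. With 1 section per diet these differences were not tested. The NCD low spots were shallower than the HFD low spots and all lacked the 3 transcripts. Subtraction of the profile off tissue left 585408 of the 3949331 UMIs of the NCD low spots.

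Spots off tissue on the HFD array held 705 CPM of Saa1, Saa2 and Lcn2, against 942 CPM over tissue, while spots off tissue on the NCD array held 172 CPM. The part of RNA that had spread over the array in the levels of single spots was not tested beyond the subtraction of the profile off tissue.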

How the results depend on the processing

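No paired analysis was possible because each diet has 1 section and there was no test between samples. There were 23 alternatives, 4 of which (without stroma-rich spots, within the stromal and duct share, within both scores, and against the middle 20%) were chosen after seeing the data. The number of genes called higher in HFD high spots (393) was 260 when ranked by Lcn2, 199 when ranked on one split of the UMIs, 86 after drawing spots down to 5000 UMIs, 172 without the stroma-rich spots, 1104 with 100 UMIs per gene, 112 with 1000 UMIs per gene and 188 at 1.5-fold. The number called lower (155) was 247 with 10% of spots per group, 31 within the zonation score, 53 drawn down, 83 without stroma-rich spots, 21 within both scores, 77 against the middle 20%, 308 and 80 with 100 and 1000 UMIs per gene, and 44 at 1.5-fold. The genes tested numbered 2442 drawn down, 4207 on split UMIs, 4329 with 10% of spots per group and 5670 without stroma-rich spots. They numbered 6147 ranked by Lcn2, 6420 within the zonation score, 6386 within both scores and 6450 against the middle 20%. This compares with 6537 for the counts of 393 and 155. The cause of the changed counts was not tested. The other acute phase genes (0.33), pericentral genes (-0.90) and Lcn2 ranked by Saa1 and Saa2 (1.59) had log2 ratios of 0.46, -1.24 and 1.99 with 10% of spots per group, 0.28, -0.78 and 1.32 with 30%, 0.25, -0.69 and 1.15 against all other spots, 0.26, -0.65 and 1.21 drawn down, 0.31, -0.81 and 1.48 as a mean over spots, 0.36, -1.01 and 1.68 after subtraction of the profile off tissue, 0.20, -0.21 and 1.51 within both scores, and 0.23, -0.59 and 1.02 against the middle 20%. The first and second of these had 0.34 and -0.94 with 10000 UMIs per spot, 0.21 and -0.23 within the zonation score, 0.30 and -0.77 ranked by Saa1 and Saa2, 0.30 and -0.93 ranked by Lcn2, 0.29 and -0.65 without stroma-rich spots, and 0.31 and -0.76 within the stromal and duct share. Pericentral genes also had -0.87 within depth and -0.96 on split UMIs. Periportal genes (0.06, not called), which are part of the zonation score, had -0.21 within that score and -0.15 within both scores. Otherwise they had 0.14 with 10% of spots, 0.0297 against all other spots, 0.0281 against the middle 20%, 0.0476 within depth, 0.045 drawn down, 0.00637 ranked by Saa1 and Saa2, 0.20 by Lcn2, 0.10 on split UMIs, 0.0833 after subtraction, 0.0826 without stroma-rich spots, and 0.0746 within the stromal and duct share. The count of genes higher in NCD high spots (50) was 146 against all other spots, 12 ranked by Lcn2, 25 on split UMIs, 19 drawn down and 205 after subtraction. The count lower (7) was 13 with 1000 UMIs per spot, 42 against all other spots, 14 ranked by Lcn2, 4 on split UMIs, 19 as a mean over spots, 242 after subtraction and 4 without stroma-rich spots. The NCD genes tested (2558) numbered 5343 against all other spots, 2957 ranked by Lcn2, 1500 on split UMIs, 1242 drawn down and 1125 after subtraction. Signs turned for B cell genes (0.39 to -0.11 with 30% of spots, -0.17 against all others, -0.19 within the stromal and duct share, -0.15 against the middle 20%), mesothelial genes (0.77 to -0.00673 within both scores) and Ccl21a, which was called higher (2.56 to -0.12 ranked by Lcn2). Among sums under 1.3-fold, signs also turned within both scores for hepatocyte (0.03 to -0.07), serpin (0.06 to -0.06), negative acute phase (0.02 to -0.04), plasma cell (0.34 to -0.15) and Kupffer cell genes (-0.14 to 0.14), the last 2 under other settings too, without stroma-rich spots for stellate cell genes (0.30 to -0.01) and ranked by Lcn2 for red blood cell genes (0.17 to -0.27). Sums of coagulation, iron handling and macrophage genes lay near 0 and took either sign. For all of these the cause was not tested.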
